A study of Homo sapiens with 12 samples.

Results

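AP-1 is a family of dimeric transcription factors built from FOS and JUN proteins, and 8 of its genes were followed here among the 60583 genes counted: FOS, FOSB, FOSL1, FOSL2, JUN, JUNB, JUND and ATF3. They were picked out of the tables by gene symbol, from a list drawn up with earlier results of these data known, and all 8 had enough counts to be tested in every comparison. FOS proteins need a partner of the JUN group to bind DNA, while JUN proteins also pair with one another, and both types meet their partner through a leucine zipper beside a basic region that contacts DNA. ATF3 belongs to the neighbouring ATF group, pairs with JUN proteins and is best known as a stress-induced factor. Several of these genes are immediate early genes: growth factors and stress switch them on within minutes, without prior protein synthesis, through MAP kinases and the factors those kinases modify. In bone-forming cells and osteosarcoma the family is known for its part in proliferation and in the expression of matrix-degrading enzymes.

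The libraries are TT-seq, which reads out nascent RNA: cells are given a thiol-labelled uridine briefly, and the RNA that took it up is broken into fragments, captured and sequenced. U2OS is a human osteosarcoma line, and U2OS-AsiSI is its derivative that expresses AsiSI-ER, a DNA-cutting restriction enzyme joined to part of the oestrogen receptor. Each line received either siCtrl, a control siRNA, or siINTS11, which targets the RNA endonuclease of the Integrator complex, and cells were taken after 48 hours, in 3 libraries per group. Both U2OS-AsiSI groups, siCtrl included, also received OHT, the ligand used with such fusions, for 1 hour, and no OHT is given for the U2OS groups. The 4 groups are thus U2OS siCtrl, U2OS siINTS11, U2OS-AsiSI siCtrl and U2OS-AsiSI siINTS11. Between the lines, the nuclease, its cutting, OHT and any difference between the cultures cannot be told apart. The labels do not say that replicates were separate cultures, so p-values measure the spread between these libraries, which may be technical. In such bulk samples fewer cells with active transcription and less RNA per cell cannot be told apart.

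Library totals ran from 20704611 to 38065726 counts, and the U2OS-AsiSI siINTS11 libraries had the 3 lowest totals. Levels below are CPM, read counts scaled to a common library size, with TMM scaling over the 12 libraries, and changes are log2 fold changes from edgeR with P-values adjusted over all genes. INTS11, the targeted gene, was at 10.1, 8.87 and 10.1 CPM in U2OS siCtrl and at 7.85, 7.06 and 7.18 CPM in U2OS siINTS11, a log2 fold change of -0.42 (SE 0.09, adjusted p = 6.08e-05), a call lost with no scaling (-0.32, adjusted p = 0.0917). In U2OS-AsiSI it was at 9.63, 11 and 9.82 CPM under siCtrl and 9.01, 9.33 and 9.48 CPM under siINTS11, which did not overlap but did not pass the test (log2 fold change -0.13, SE 0.08, adjusted p = 0.172; 0.06 with library totals alone). Under siINTS11, INTS11 was higher in U2OS-AsiSI than in U2OS (0.37, SE 0.08, adjusted p = 0.000457). Nascent reads over the gene are not a measure of the mature mRNA that an siRNA acts on. Of 10 osteoblast and mesenchymal markers, 6 had a mean count of at least 50 in every group and BGLAP, the osteocalcin gene, was at 0. SP7, IBSP and COL1A2, also on this list, had a mean count of 10 or less in every group. Of 10 markers of epithelial, blood and endothelial cells, 3 had a mean count of at least 50 in each siCtrl group and 4 in each siINTS11 group. These 10 markers summed to between 15.7 and 26.9 CPM, against 1082 to 1282 CPM for the mesenchymal list, and HBB, a haemoglobin gene, was at 0. The summed markers of other cell types were higher under siINTS11 in both lines, at 24.7 to 26.9 CPM against 16.1 to 17.9 CPM in U2OS and at 21.6 to 23.2 CPM against 15.7 to 16.3 CPM in U2OS-AsiSI. The mesenchymal sum was lower under siINTS11 in both lines. It was at 1082 to 1119 CPM against 1219 to 1282 CPM in U2OS, and at 1114 to 1178 CPM against 1209 to 1256 CPM in U2OS-AsiSI. Genes of the mesenchymal list moved both ways. Of 6 tested, 2 were called higher and 3 lower in U2OS, beside 34.5% and 32.4% of all genes tested. In U2OS-AsiSI 3 were called higher and 2 lower, beside 35.4% and 32.6%. RUNX2 fell from a mean of 437 to 249 CPM in U2OS and from 325 to 154 CPM in U2OS-AsiSI. CD44 rose from 336 to 426 CPM and from 463 to 524 CPM. The part of either list in the results below was not tested.

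The promoters are shown because the members separated into genes that were raised by siINTS11 in both lines and genes that were not. RefSeq (GRCh38.p14) gave a start site for 7 of the 8 members, and FOSL1 had none in the table used. The lines below give the 250 bases before the start of 3 genes that rose in both lines, FOS (chr14:75278578-75278827, plus strand), FOSB (chr19:45467746-45467995, plus strand) and JUNB (chr19:12791236-12791485, plus strand). They are followed by 2 that did not rise in U2OS, JUN (chr1:58784048-58784297, minus strand) and JUND (chr19:18281623-18281872, minus strand). Each is read 5′ to 3′ along the gene, and capitals mark TGACG, the core of the cyclic AMP response element, on either strand (CGTCA on the other), its full form TGACGTCA, and TGACATCA, the variant that JUN and ATF2 dimers are known to bind.
FOS: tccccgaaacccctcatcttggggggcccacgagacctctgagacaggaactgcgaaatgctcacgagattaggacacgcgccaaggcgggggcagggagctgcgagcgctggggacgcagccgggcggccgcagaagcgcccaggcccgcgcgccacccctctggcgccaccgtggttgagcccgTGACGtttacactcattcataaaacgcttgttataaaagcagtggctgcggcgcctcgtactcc
FOSB: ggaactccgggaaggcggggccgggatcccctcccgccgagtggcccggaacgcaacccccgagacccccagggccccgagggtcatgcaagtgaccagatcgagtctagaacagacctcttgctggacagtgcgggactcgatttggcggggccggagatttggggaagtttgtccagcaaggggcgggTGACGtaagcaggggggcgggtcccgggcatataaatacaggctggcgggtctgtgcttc
JUNB: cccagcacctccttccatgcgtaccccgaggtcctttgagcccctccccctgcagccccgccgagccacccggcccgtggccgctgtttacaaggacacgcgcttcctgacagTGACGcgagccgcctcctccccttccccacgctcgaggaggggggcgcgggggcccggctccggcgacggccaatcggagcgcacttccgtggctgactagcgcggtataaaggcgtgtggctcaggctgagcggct
JUN: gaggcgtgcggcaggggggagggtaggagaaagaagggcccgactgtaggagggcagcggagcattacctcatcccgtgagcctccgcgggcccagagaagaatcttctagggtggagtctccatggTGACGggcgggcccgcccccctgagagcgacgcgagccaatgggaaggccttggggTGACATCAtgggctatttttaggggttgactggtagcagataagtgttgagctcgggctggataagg
JUND: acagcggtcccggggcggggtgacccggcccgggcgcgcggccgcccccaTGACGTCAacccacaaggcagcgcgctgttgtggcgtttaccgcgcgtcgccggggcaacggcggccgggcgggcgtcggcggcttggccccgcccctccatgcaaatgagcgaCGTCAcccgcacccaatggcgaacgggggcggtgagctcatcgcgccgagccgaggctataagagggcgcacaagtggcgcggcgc
TGACG was found in 6 members (FOS, FOSB, FOSL2, JUN, JUNB and JUND), against 21.2% of 35116 windows of the same length, with both strands searched. It lies 64 bases before the start in FOS, 60 in FOSB and 137 in JUNB. The longer TGACGTCA, which contains TGACG on both strands, was found in JUND alone (1.65% of windows), 200 bases before its start. TGACATCA was found in JUN, 67 bases before the start, and in ATF3, 123 bases before it (2.37% of windows). TATAAA, a core promoter element, lies 33, 30 and 31 bases before the start in FOS, FOSB and JUNB, and was found in no window of FOSL2, JUN or JUND. Only this exact string was searched, and the JUND window above holds the near match TATAAG close to its start. The RefSeq start used for FOSL2 lies 410 bases from the gene start in the counts. The matches therefore do not separate genes with and without such an element. ATF3 holds TATAAA in the window of its downstream start only, 230 bases before that start, and 10.7% of all windows hold the motif. TGANTCA, the AP-1 site itself, was in 0 of the 8 member windows, against 6.57% of all windows. These matches describe letters in these windows and are not evidence of bound factors.

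Levels of different genes were compared as CPM per kb of gene span, since the counts cover the whole span, introns included. JUN, a partner in most AP-1 dimers and a gene of a single exon (ENSG00000177606, chr1:58780791-58784047, minus strand, hg38), was at the top of this order in every group, with means from 17.6 to 21.7 CPM per kb and no overlap with the gene below it. FOSB was lowest in every group, with means from 0.142 to 0.419 CPM per kb. FOS and ATF3 held the 2 places above FOSB. In U2OS siCtrl FOS (1.6 CPM per kb, SD 0.273, n = 3) and ATF3 (1.42, SD 0.0745) overlapped, while in the other 3 groups FOS lay above ATF3 without overlap, reaching 5.74 CPM per kb (SD 0.586) in U2OS-AsiSI siINTS11. The middle of the order was FOSL2, JUND, JUNB and FOSL1 in U2OS siCtrl, at 10.9, 7.93, 6.58 and 6.29 CPM per kb. In U2OS-AsiSI siINTS11 it was JUNB, FOSL1, FOSL2 and JUND, at 14.6, 14.3, 10.0 and 9.76 CPM per kb, where JUNB and FOSL1 overlapped and FOSL2 and JUND overlapped. JUNB and FOSL1 thus lay above FOSL2 in that group, without overlap. Their means were also above that of FOSL2 in U2OS siINTS11 (JUNB 9.75, FOSL1 9.65, FOSL2 9.45 CPM per kb). The same held in U2OS-AsiSI siCtrl (JUNB 9.43, FOSL1 9.75, FOSL2 9.21 CPM per kb), but the ranges overlapped in both of these groups. Per-kb values of genes with long introns, such as ATF3, of whose span 7.29% is exonic, mix intron and exon signal.

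**Figure D1:**
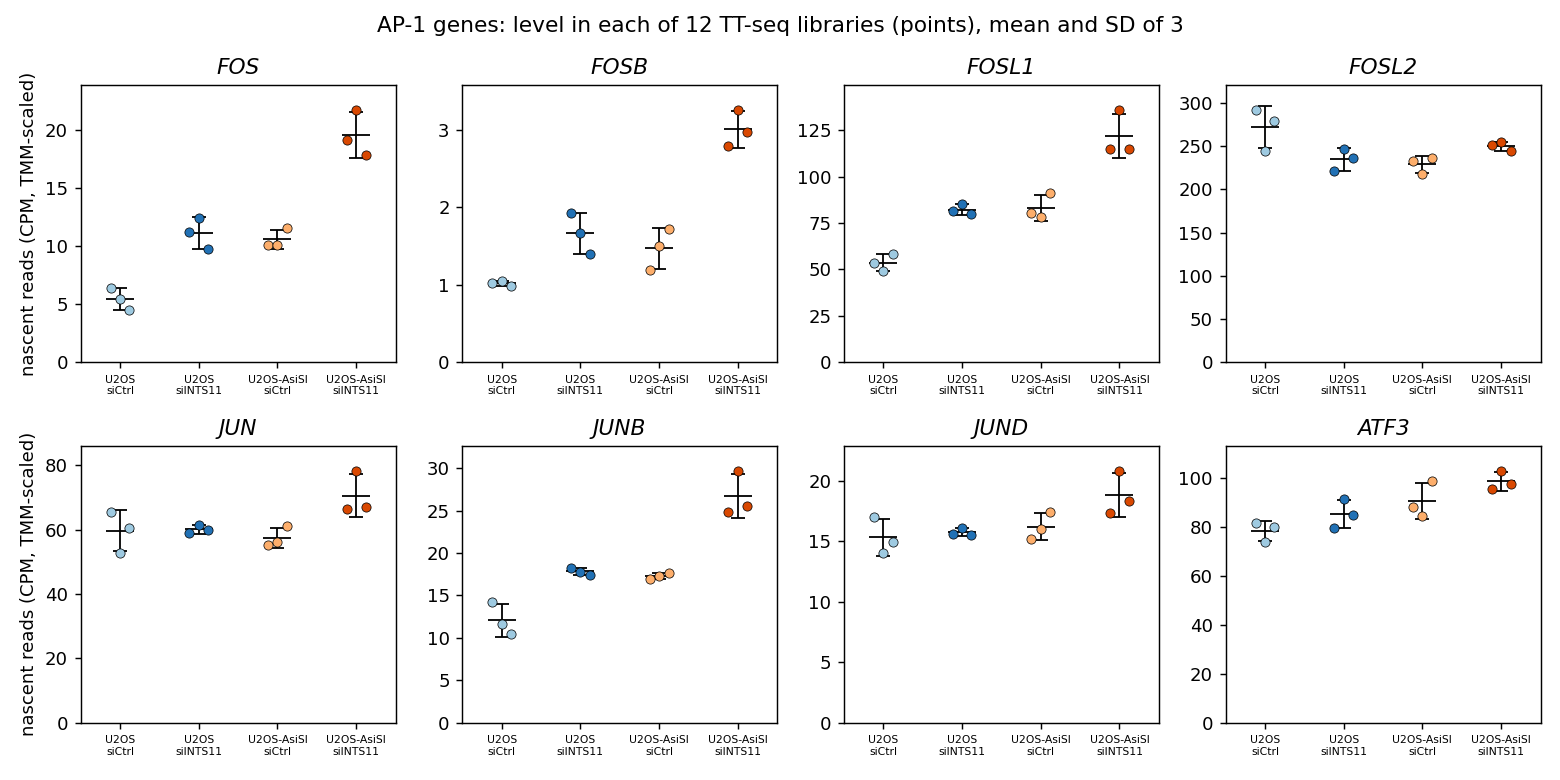
Level of each of the 8 AP-1 genes in CPM (TMM-scaled, y axis from 0) in each of the 12 libraries, by group on the x axis; points are libraries, and the bar gives the mean and SD of 3. FOS, FOSB, FOSL1 and JUNB climb in 2 steps, with U2OS siCtrl lowest and U2OS-AsiSI siINTS11 highest, while FOSL2 is highest in U2OS siCtrl.

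FOS, the founding FOS protein (ENSG00000170345, chr14:75278826-75282230, plus strand), rose with siINTS11 in both lines. In U2OS it was at 6.37, 5.42 and 4.51 CPM under siCtrl and at 11.2, 12.4 and 9.7 CPM under siINTS11. In U2OS-AsiSI the values were 10.1, 10.1 and 11.5 CPM under siCtrl and 19.1, 21.7 and 17.8 CPM under siINTS11. The siINTS11 libraries lay above all siCtrl libraries of their line, and the U2OS siINTS11 and U2OS-AsiSI siCtrl libraries covered overlapping ranges. The log2 fold change was 1.00 (SE 0.10, adjusted p = 1.88e-10) in U2OS and 0.89 (SE 0.08, adjusted p = 2.29e-11) in U2OS-AsiSI. Unscaled counts showed the same order, at 175, 192 and 128 against 372, 380 and 304 reads in U2OS and at 297, 323 and 315 against 547, 494 and 521 reads in U2OS-AsiSI, although the siINTS11 libraries of U2OS-AsiSI held fewer reads in total.

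FOSB, a close relative of FOS that is also induced as an immediate early gene (ENSG00000125740, chr19:45467995-45475179, plus strand), had the fewest reads of the 8. Its counts were 28, 37 and 28 reads in U2OS siCtrl, 64, 51 and 44 in U2OS siINTS11, 35, 48 and 47 in U2OS-AsiSI siCtrl and 80, 74 and 87 in U2OS-AsiSI siINTS11. Groups of the same line did not overlap on the CPM scale, and FOSB rose by a log2 fold change of 0.68 in U2OS (SE 0.19, adjusted p = 0.00179) and 1.03 in U2OS-AsiSI (SE 0.16, adjusted p = 1.22e-06). FOSB lies inside ERCC1, a DNA repair gene on the other strand with 1861 to 2454 reads per library. ERCC1 had log2 fold changes of -0.06 in U2OS (adjusted p = 0.25) and 0.18 in U2OS-AsiSI (adjusted p = 0.00102; 0.04 and not called with no scaling).

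FOSL1, which encodes FRA1, a FOS protein without the strong activation domain of FOS (ENSG00000175592, chr11:65892049-65900573, minus strand), rose in both lines as well. It was at 53.5, 49.2 and 58.1 CPM in U2OS siCtrl and 81.6, 85.4 and 79.7 CPM in U2OS siINTS11, a log2 fold change of 0.59 (SE 0.05, adjusted p = 2.19e-14). In U2OS-AsiSI it was at 80.3, 78.0 and 91.2 CPM under siCtrl and 115, 136 and 115 CPM under siINTS11, a log2 fold change of 0.55 (SE 0.06, adjusted p = 1.36e-09). No siINTS11 library overlapped a siCtrl library of its line.

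FOSL2, which encodes FRA2 (ENSG00000075426, chr2:28392448-28417317, plus strand), had the highest CPM of the 8 and moved differently. In U2OS it was at 292, 245 and 279 CPM under siCtrl and 221, 247 and 237 CPM under siINTS11. These ranges overlapped through siCtrl replicate 2, and FOSL2 fell, with a log2 fold change of -0.24 (SE 0.05, adjusted p = 0.000485), a call lost with library totals alone (-0.04) and with no scaling (-0.14). In U2OS-AsiSI it was at 233, 218 and 236 CPM under siCtrl and 251, 255 and 244 CPM under siINTS11, without overlap, and was called higher by 0.13 (SE 0.05, adjusted p = 0.0123). That call was lost without U2OS-AsiSI siCtrl replicate 2 (0.09, adjusted p = 0.145), without U2OS-AsiSI siINTS11 replicate 2 (0.11, adjusted p = 0.0573), with median-of-ratios size factors (0.11, adjusted p = 0.059) and with no scaling, where the sign turned (-0.01). A short gene inside FOSL2 on its strand, AC104695.4, had no reads in these libraries. How reads lying in both genes were assigned is not given, so this does not show that AC104695.4 was silent.

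JUNB, a JUN protein that is a weaker activator than JUN at many sites (ENSG00000171223, chr19:12791486-12793315, plus strand), was the JUN gene that rose in both lines. It was at 14.2, 11.6 and 10.4 CPM in U2OS siCtrl and 18.3, 17.8 and 17.4 CPM in U2OS siINTS11, a log2 fold change of 0.54 (SE 0.08, adjusted p = 2.18e-07). In U2OS-AsiSI it was at 16.9, 17.3 and 17.6 CPM under siCtrl and 24.9, 29.7 and 25.6 CPM under siINTS11, a log2 fold change of 0.63 (SE 0.07, adjusted p = 9.11e-10). No siINTS11 library overlapped a siCtrl library of its line. JUNB lies inside HOOK2 on the other strand, a gene for a microtubule linker protein, and had more reads than HOOK2 as a whole in 10 of 12 libraries (296 to 749 reads against 297 to 494). HOOK2 had log2 fold changes of 0.14 in U2OS (adjusted p = 0.0996) and 0.40 in U2OS-AsiSI (adjusted p = 5.55e-05; 0.26 and not called with no scaling).

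JUN and JUND differed from JUNB in U2OS. JUN was at 65.6, 52.9 and 60.5 CPM in U2OS siCtrl and 58.9, 61.5 and 59.8 CPM in U2OS siINTS11, overlapping ranges with a log2 fold change of -0.02 (SE 0.05, adjusted p = 0.821). JUND, a JUN protein known for steady expression in many cells (ENSG00000130522, chr19:18279694-18281622, minus strand), was at 17.0, 14.0 and 14.9 CPM and at 15.6, 16.1 and 15.5 CPM (log2 fold change 0.02, SE 0.07, adjusted p = 0.844). With library totals alone both passed the test in U2OS, at 0.18 for JUN (adjusted p = 0.0026) and 0.22 for JUND (adjusted p = 0.0122).

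In U2OS-AsiSI JUN was at 55.3, 56.2 and 61.0 CPM under siCtrl and 66.3, 78.3 and 67.1 CPM under siINTS11, without overlap, and rose by 0.30 (SE 0.06, adjusted p = 2.59e-05). JUND was at 15.2, 16.0 and 17.4 CPM and at 17.3, 20.8 and 18.3 CPM, ranges that overlapped narrowly, and was called higher by 0.22 (SE 0.07, adjusted p = 0.00882). JUND lost its call without U2OS-AsiSI siINTS11 replicate 2 (0.15, adjusted p = 0.0903), the shallowest library. With no scaling, neither JUN (0.15, adjusted p = 0.45) nor JUND (0.07, adjusted p = 0.748) passed.

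ATF3 (ENSG00000162772, chr1:212565334-212620777, plus strand) is the longest of the 8 genes, at 55444 bp. It was at 81.8, 73.9 and 79.9 CPM in U2OS siCtrl and 79.7, 91.4 and 84.8 CPM in U2OS siINTS11, with a log2 fold change of 0.09 that missed the threshold (SE 0.05, adjusted p = 0.079). In U2OS-AsiSI it was at 88.3, 84.6 and 99.0 CPM and at 95.4, 103 and 97.6 CPM, and was called higher by 0.13 (SE 0.05, adjusted p = 0.0301). The groups overlapped in both lines. The U2OS-AsiSI call held in 7 of the 15 settings run and turned to -0.02 with no scaling, and it was lost without siCtrl replicate 1 or 2 or siINTS11 replicate 2 or 3. In U2OS, ATF3 passed the test in 6 of the alternative settings, among them library totals alone (0.29, adjusted p = 2.34e-07) and without siCtrl replicate 1 or 3 or siINTS11 replicate 1.

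In U2OS, 4 of 8 members were called higher, against 34.5% of the 20687 genes tested, and 1 was called lower, against 32.4%. The libraries stood apart upward for the same 4 members (38.2% of all genes). In U2OS-AsiSI, 8 of 8 were called higher, against 35.4% of 20441 genes, and 68% of genes were called in either direction, but with no scaling FOSL2 and ATF3 had a negative sign and 4 members were called, and with median-of-ratios size factors 6 were called. The libraries stood apart upward for 6 members (36.4% of all genes). The median change over the 8 was 0.32 in U2OS and 0.43 in U2OS-AsiSI, beside 0.02 and 0.03 over all genes tested. With library totals alone the median of all genes was 0.22 in both lines. FOS, FOSB, FOSL1 and JUNB were called higher in both lines under every setting in which they could be tested.

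Unscaled read density was compared with depth because the tables show a ceiling. The 13 mitochondrially encoded mRNA genes, which are short and dense in reads, summed to between 9058 and 9193 counts in every library although totals differed, so that scaling to depth alone moves them. Their median change was -0.10 in U2OS (0 of 13 called) and 0.16 in U2OS-AsiSI (3 of 13 called higher). JUN was the member densest in reads, at 0.501 to 0.602 reads per base, and its counts in U2OS siCtrl spanned 1.09-fold while library totals spanned 1.29-fold. JUND (0.219 to 0.278), FOSL2 (0.233 to 0.348), FOSL1 (0.172 to 0.394) and JUNB (0.162 to 0.409) were in the middle. FOS (0.0376 to 0.161), ATF3 (0.0405 to 0.0515) and FOSB (0.0039 to 0.0121) were lowest. The spread of counts did not follow density in every group. In U2OS-AsiSI siINTS11, where totals spanned 1.28-fold, counts spanned 1.11-fold for FOS, 1.22-fold for ATF3, 1.1-fold for JUN and 1.24-fold for FOSL2. In U2OS siCtrl FOS counts spanned 1.5-fold. Only 7.29% of the ATF3 span is exonic, so its density averages introns and exons. Whether the ceiling contributes to the values of any member was not tested.

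**Figure D2:**
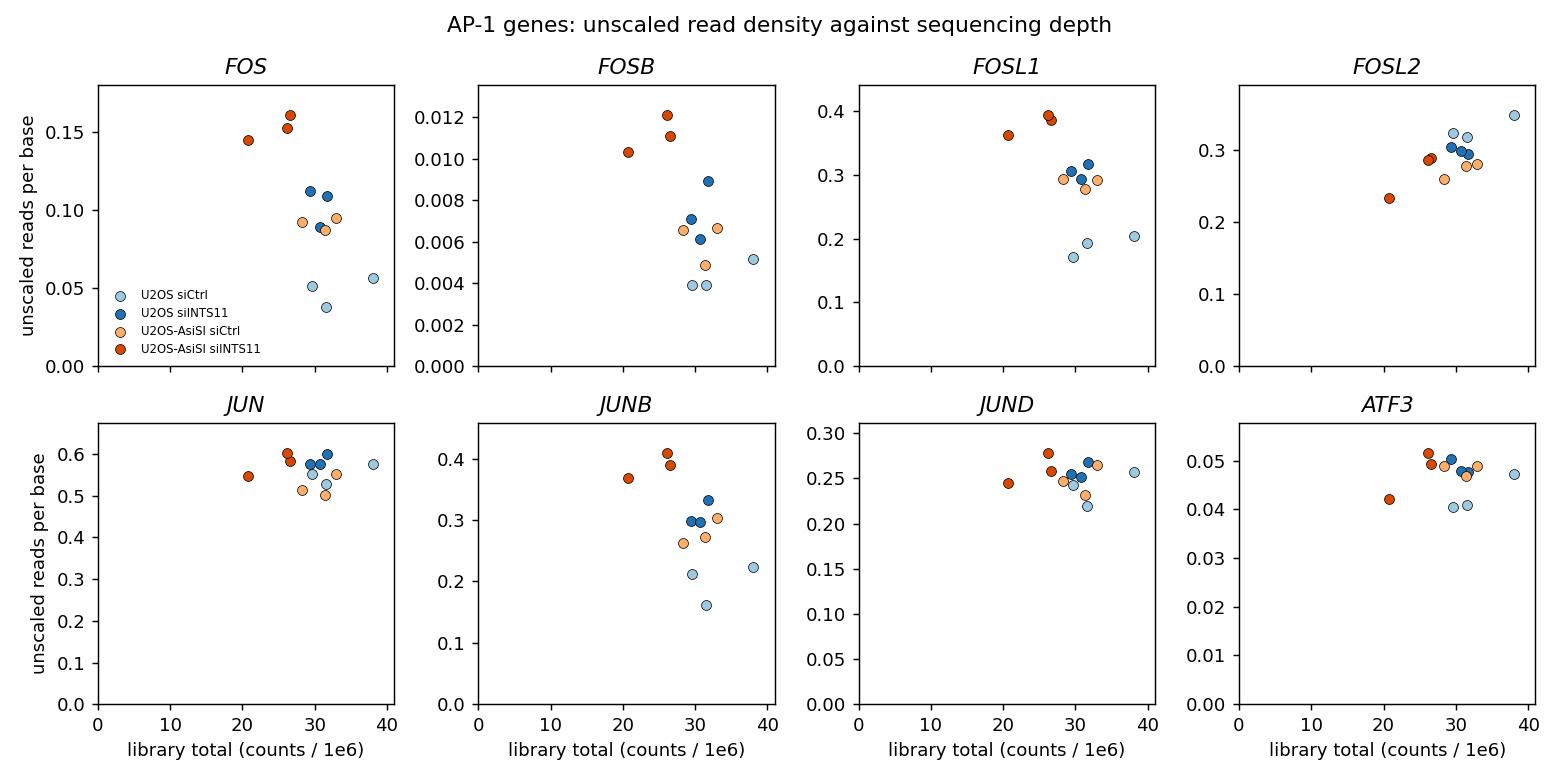
Unscaled reads per base of gene span (y axis from 0) against the library total (x axis) for each AP-1 gene; each point is a library, coloured by group. FOS, FOSB, FOSL1 and JUNB are highest in the U2OS-AsiSI siINTS11 libraries, which have the lowest totals, while JUN stays between 0.501 and 0.602 reads per base in all 12.

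The difference between the lines in the siINTS11 change was tested as an interaction over all 12 libraries, where 3.87% of 21521 genes were called, 0.762% upward in U2OS-AsiSI and 3.1% downward. Of the 8 members 1 was called upward and 0 downward, and that 1 was FOSL2, with a difference of 0.34 (U2OS-AsiSI minus U2OS, SE 0.07, adjusted p = 0.00722). The call was lost with no scaling (0.13, adjusted p = 0.709) and with the replicate number as a block (0.33, adjusted p = 0.143), and beside it the mitochondrial genes had a median difference of 0.22. JUN had a difference of 0.28 that missed the threshold (SE 0.09, adjusted p = 0.0839), and passed it without U2OS siCtrl replicate 2 and without U2OS-AsiSI siINTS11 replicate 1. For the genes that rose in both lines the estimated differences were -0.15 for FOS (SE 0.14, adjusted p = 0.624), 0.32 for FOSB (SE 0.25, adjusted p = 0.525), -0.07 for FOSL1 (SE 0.09, adjusted p = 0.741) and 0.06 for JUNB (SE 0.11, adjusted p = 0.836). The FOSB difference has the widest error, and none of these shows that the lines respond alike.

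The lines were also compared under each siRNA, using the same libraries as above, so these values are not independent of the siINTS11 changes. Under siCtrl, 5 of 8 members were higher in U2OS-AsiSI, against 17.8% of 19935 genes, and 1 was lower, against 17.2%. The same 5 members stood apart upward between the lines' libraries (23% of all genes) and the same 1 downward (21.9%). FOS was higher by 0.96 (SE 0.10, adjusted p = 1.48e-08), FOSL1 by 0.64 (SE 0.06, adjusted p = 3.14e-09) and JUNB by 0.52 (SE 0.08, adjusted p = 1.22e-05). FOSB was called higher by 0.52 (SE 0.20, adjusted p = 0.04), a call that held in 4 of 14 settings and was lost on leaving out any of 5 libraries: U2OS siCtrl replicate 1, 2 or 3, or U2OS-AsiSI siCtrl replicate 2 or 3. ATF3 was higher by 0.21 (adjusted p = 0.002) and FOSL2 lower, at -0.25 (adjusted p = 0.000538), both without overlap between the lines, and both lost their call with no scaling, as did JUNB (0.49). JUN (-0.05, adjusted p = 0.574) and JUND (0.09, adjusted p = 0.4) did not pass.

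Under siINTS11, 8 of 8 members were called higher in U2OS-AsiSI than in U2OS, against 22.2% of 20802 genes, from 0.12 for FOSL2 (adjusted p = 0.0185) to 0.87 for FOSB (adjusted p = 6.53e-06). The libraries stood apart upward for 7 members, all but FOSL2 (23% of all genes), and downward for 0 (29.9% of all genes). With no scaling the signs of FOSL2, JUN and ATF3 turned (-0.15, -0.02 and -0.03) and only FOS (0.56) and FOSB (0.60) stayed called. Beside this, 13 of 13 mitochondrial genes were called higher, with a median of 0.30. The FOSL2 call was also lost without U2OS siINTS11 replicate 1 or U2OS-AsiSI siINTS11 replicate 2. The mean CPM in U2OS-AsiSI siINTS11 divided by that in U2OS siCtrl was 3.6 for FOS, 2.96 for FOSB, 2.27 for FOSL1 and 2.22 for JUNB. It was 1.26 for ATF3, 1.23 for JUND, 1.18 for JUN and 0.918 for FOSL2.

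**Figure D3:**
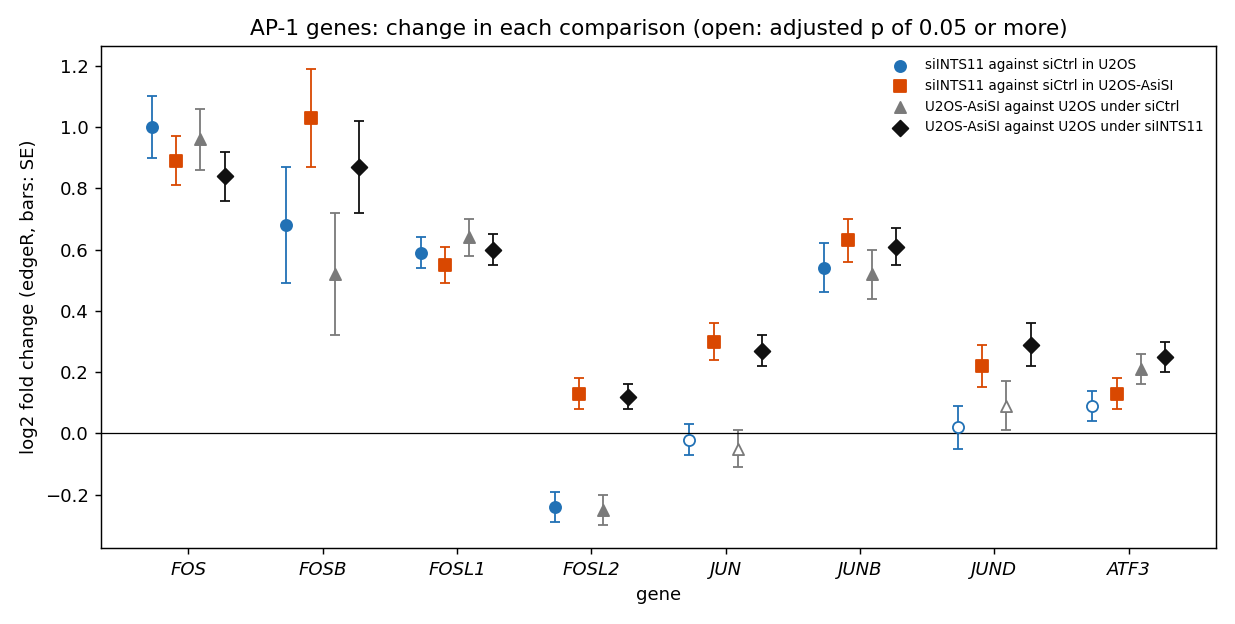
Log2 fold change of each AP-1 gene (edgeR, bars give the SE) in the 2 siINTS11 comparisons and the 2 comparisons between the lines; filled symbols have an adjusted p under 0.05, and the comparisons share libraries. FOS, FOSB, FOSL1 and JUNB lie above 0.5 in all 4, and FOSL2 is negative in U2OS and between the lines under siCtrl; with no scaling FOSL2 and ATF3 turn negative in U2OS-AsiSI, FOSL2, JUN and ATF3 turn negative between the lines under siINTS11, and JUN turns positive in U2OS.

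Members were also compared by their pattern, as the root mean square difference of log2 CPM centred on each gene over the 12 libraries. JUN and JUND were the closest pair (0.0577), followed by JUND and ATF3 (0.0789), and FOSL1 was closest to JUNB (0.132) among the genes that rose. FOS and FOSL2 were farthest apart (0.718). This measure depends on how much each gene varies. The root mean square around a gene's own mean was 0.14 for JUN, 0.15 for JUND, 0.14 for ATF3 and 0.12 for FOSL2. It was 0.67 for FOS, 0.56 for FOSB, 0.43 for FOSL1 and 0.42 for JUNB. Small differences between genes that vary little do not by themselves show a shared pattern. Among the 13557 genes whose mean count was 100 or more, the gene closest to FOS after the non-coding AC080038.2 (0.143) was MAFF (0.151), itself a small MAF protein that pairs with other bZIP factors. SERTAD1 (0.0789), PIM3 (0.0806) and TRAF4 (0.082) were closest to FOSL1, and DPYSL4 (0.0642), LRFN4 (0.0758) and NPM3 (0.0795) to JUNB. JUN was closest to H3-3B (0.0264), TAGLN2 (0.0324) and RMRP (0.0329), and JUND to PCBP1 (0.0279), GAS5 (0.0317) and TUBA1B (0.0337). On average H3-3B, TAGLN2 and RMRP held 0.159, 0.433 and 0.783 reads per base, and PCBP1, GAS5 and TUBA1B held 0.507, 0.307 and 0.453. FOSL2 was closest to LIF (0.0636), MYH9 (0.0644) and SPEG (0.0667), ATF3 to IRF2BP2 (0.0429), CYCS (0.0478) and RACK1 (0.0497), FOSB to AC022211.3 (0.133), ENG (0.139) and ZNF792 (0.14), and CHST2 (0.164) came next for FOS. All these values share the depth and scaling of the same libraries.

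Genes beside the members did not move as one. AC104695.2, which overlaps FOSL2 on the other strand, rose by 0.74 in U2OS (SE 0.11, adjusted p = 6.89e-08) and 0.92 in U2OS-AsiSI (SE 0.11, adjusted p = 9.48e-09), from 3.85 to 6.6 CPM and from 4.73 to 8.82 CPM, while FOSL2 fell in U2OS. AC018761.2, 3507 bp downstream of JUNB on its strand, rose by 2.02 in U2OS (SE 0.34) and 1.51 in U2OS-AsiSI (SE 0.24), from 0.208 to 0.868 CPM and from 0.463 to 1.31 CPM. AC092803.4, 3934 bp upstream of ATF3, rose by 0.81 and 0.62. Downstream of FOSL2, AC104695.3 fell by 2.07 in U2OS and 2.42 in U2OS-AsiSI on the log2 scale, at 0.798 CPM or less in every group mean. Next to FOSL1, C11orf68 rose by 0.29 and 0.36, while FIBP, 3509 bp downstream of FOSL1, had 0.06 (adjusted p = 0.552) and -0.01 (adjusted p = 0.897). LINC01220, 12173 bp downstream of FOS, did not pass in U2OS (0.10, adjusted p = 0.626) or U2OS-AsiSI (0.14, adjusted p = 0.504), nor did AF111167.1 upstream of it (-0.42 and -0.64). PPM1N beyond FOSB rose in U2OS (0.76, adjusted p = 0.0152) and had 0.62 in U2OS-AsiSI (adjusted p = 0.0794), and IQCN beyond JUND had -0.40 (adjusted p = 0.0775) and fell by 0.55 (adjusted p = 0.0453). The PPM1N call in U2OS was lost in thinned libraries (0.64), with DESeq2 (0.73, adjusted p = 0.101), without U2OS siCtrl replicate 2 (0.51) and without U2OS siINTS11 replicate 2 (0.66). The IQCN call was lost in 7 settings, among them DESeq2 (-0.57, adjusted p = 0.133) and without U2OS-AsiSI siCtrl replicate 2 (-0.35), siINTS11 replicate 1 (-0.42) or siINTS11 replicate 2 (-0.45). With no scaling AC092803.4 (0.47) and C11orf68 (0.22) lost their call in U2OS-AsiSI.

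Other bZIP genes that pair with FOS or JUN proteins moved in both directions under siINTS11. In U2OS 34.5% of all genes were called higher and 32.4% lower (median 0.02), and in U2OS-AsiSI 35.4% and 32.6% (median 0.03), which is the background for the lists that follow. Of 11 listed, 9 were tested: 6 rose, 2 fell and 1 did not pass in U2OS (median 0.24), and 5 rose, 2 fell and 2 did not pass in U2OS-AsiSI (median 0.36). BATF2 rose by 2.50 and 2.32, from 0.457 to 2.6 CPM in U2OS and from 0.746 to 3.78 CPM in U2OS-AsiSI. MAFF rose by 1.04 and 0.84, from 32.4 to 68.2 CPM and from 66.5 to 118 CPM. JDP2, a repressive JUN partner, rose by 0.33 and 0.48, and ATF2, the JUN partner at TGACATCA sites, fell by 0.27 and 0.34. With no scaling JDP2 lost its call in U2OS-AsiSI (0.34) and ATF2 in U2OS (-0.18).

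Among the genes of the kinases and factors upstream of FOS and JUN, more fell than rose. Of 25 tested, 5 rose, 14 fell and 6 did not pass in U2OS (median -0.13), and 5 rose, 13 fell and 7 did not pass in U2OS-AsiSI (median -0.17), so that the share called lower was above the 32.4% and 32.6% of all genes. MAP3K1, a kinase at the head of the JNK pathway, fell by 0.82 in U2OS and 0.76 in U2OS-AsiSI. MAP2K4, which activates JNK, fell by 0.34 and 0.50, and lost its call in U2OS with no scaling (-0.26). MAP2K3, which activates p38 kinases, rose by 0.56 and 0.60. These are nascent reads of the kinase genes and say nothing of kinase activity, and FOS, JUNB and FOSL1 were higher in the same libraries.

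Most of the genes commonly given as AP-1 targets were called higher, against 34.5% of all genes in U2OS and 35.4% in U2OS-AsiSI. Of 22 listed, 21 were tested: 17 rose, 1 fell and 3 did not pass in U2OS (median 0.42), and 18 rose, 0 fell and 3 did not pass in U2OS-AsiSI (median 0.40). The list was chosen with earlier results of these data known. CXCL8, a chemokine gene, rose by 2.27 and 1.96, from 1.77 to 8.67 CPM in U2OS and from 3.53 to 13.6 CPM in U2OS-AsiSI. PLAU, the urokinase protease gene, rose by 0.87 and 1.26, from 20.2 to 37.5 CPM and from 22.5 to 53.8 CPM. IL11, a cytokine gene, rose by 1.04 and 1.16, and HMOX1, the haem oxygenase gene, by 0.76 and 0.81. The gene that fell in U2OS was LIF, a cytokine gene, at -0.16 (adjusted p = 0.0216), named after its value was seen.

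**Figure D4:**
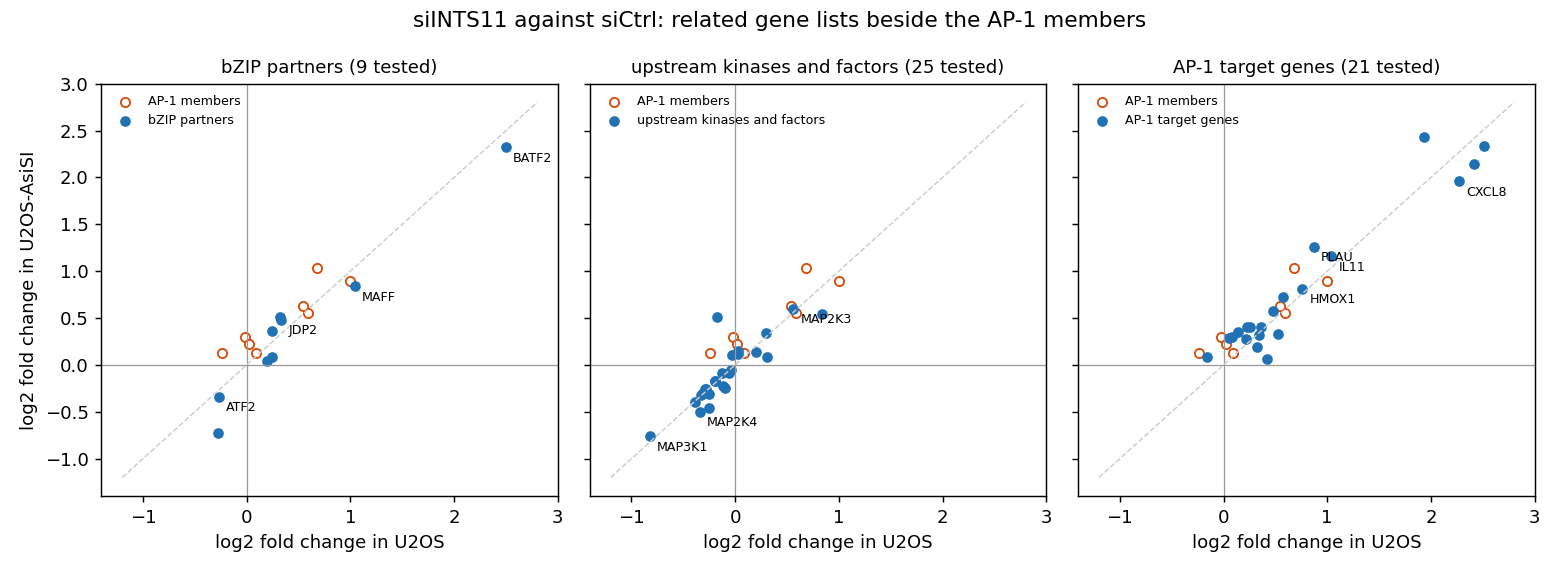
Log2 fold change with siINTS11 in U2OS (x axis) and in U2OS-AsiSI (y axis) for each tested gene of 3 lists (filled points) beside the 8 AP-1 members (open circles); the dashed line marks equal change and named genes are labelled. AP-1 target genes lie mostly above 0 in both lines, and more of the kinase and factor genes lie below 0 than above it.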

How the data were processed

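TT-seq libraries of U2OS and U2OS-AsiSI cells under siCtrl or siINTS11 (4 groups of 3, by the sample titles) were used. The authors deposited raw counts per gene for 60583 genes. Trimmomatic 0.36, STAR 2.7, featureCounts, deepTools and hg38 are named, per the submitters' processing notes, without settings. Strand setting and duplicate handling are not given in the sources used here. Libraries are directional, per the labels' protocols. The length given equals the gene span for 99.9% of genes, so introns are counted, and 75.1% of 55454 symbols shared with GENCODE 29 had the same span. A yeast RNA spike-in was added, per the labels' protocols, and was not used here, so changes in total nascent RNA were not analysed. Columns without a sample numbered 0.

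The test was edgeR's quasi-likelihood F test (version 4.0.16, R 4.3.3; low counts removed by filterByExpr, TMM scaling, robust glmQLFit), two-sided, on the groups compared, with Benjamini-Hochberg adjustment over all genes tested at 0.05. SEs were obtained by dividing the size of the log2 fold change by the root of F. The difference between the lines is the interaction of siRNA and line. The tests were first run on simulated data. Replicates differed by more than sampling noise (chi-square per degree of freedom 2.11 to 3.1). Totals of 20704611 to 38065726 counts limit precision most for FOSB, and SEs cover only the spread between libraries.

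The members and lists were chosen with earlier results of these data known. Named are INTS11, the members, up to 3 genes per list with the smallest adjusted p in each siINTS11 comparison (mean count at least 50), neighbours on the strand within 50 kb and overlapping genes, and the 3 genes most like each member. A gene that this rule names is not reported here. As alternatives, scaling was replaced by median-of-ratios size factors, by library totals or by none, or libraries were thinned to the smallest total. The count filter was dropped or raised to a mean of 50, replicate numbers entered as a block, DESeq2 1.42.0 was used, and each library was left out in turn. Promoter windows are RefSeq (GRCh38.p14). Figures used matplotlib.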

Additional observations from a re-analysis of the deposited data

Results flagged for a closer look

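FOSL2 was the one member whose siINTS11 change differed between the lines by the interaction test. The difference was 0.34 on the log2 scale (U2OS-AsiSI minus U2OS, SE 0.07, adjusted p = 0.00722), with a change of -0.24 in U2OS and 0.13 in U2OS-AsiSI, and 3 of 3 U2OS-AsiSI siINTS11 libraries lay above that line's siCtrl libraries, while in U2OS the ranges overlapped. The call was lost with no scaling (0.13, adjusted p = 0.709) and with the replicate number as a block (0.33, adjusted p = 0.143).

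PLAU, the urokinase gene of the AP-1 target list, also differed, by 0.36 (SE 0.09, adjusted p = 0.0164). It rose in both lines, by 0.87 in U2OS and 1.26 in U2OS-AsiSI, and the siINTS11 libraries lay above the siCtrl libraries in each. The call was lost with no scaling (0.15), without U2OS siCtrl replicate 1 (0.31, adjusted p = 0.0556) and without U2OS siINTS11 replicate 1 (0.31, adjusted p = 0.0574).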

How the results depend on the processing

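FOS, FOSB, FOSL1 and JUNB kept their direction and their call in both siINTS11 comparisons under every alternative in which they were tested, and FOSB could not be tested in U2OS at a mean count of at least 50. Over the members' log2 fold changes in the 5 comparisons, 531 alternative values kept direction and call. With the direction kept, 36 lost the call and 12 gained one. The other 26 changed sign, and some of these also lost or gained a call. The cause of these changes was not tested.

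With no scaling, 4 members were called in U2OS-AsiSI, where FOSL2 was at -0.01 and ATF3 at -0.02, and 9198 genes were called, against 8686 in U2OS, where JUN was at 0.08 and ERCC1 at 0.04. For the difference between the lines, no scaling gave 0 members and 3 genes, with JUNB at -0.15, JUND at -0.04 and ATF3 at -0.20. It gave 2 members and 311 genes between the lines under siCtrl. Under siINTS11 it gave 2 members, with FOSL2 at -0.15, JUN at -0.02 and ATF3 at -0.03.

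With library totals alone, JUN was at 0.18 and ERCC1 at 0.14 in U2OS, INTS11 at 0.06 in U2OS-AsiSI and JUN at 0.01 between the lines under siCtrl. JUN in U2OS was at 0.03 both in thinned libraries and at a mean count of at least 50. The share of higher genes among all calls, 51.6% in U2OS and 52.1% in U2OS-AsiSI, was 67.1% and 40% with no scaling and 74.3% and 72.3% with library totals alone. Between the lines it was 50.9% under siCtrl and 51% under siINTS11, and became 38.6% and 3.42% with no scaling and 67.4% and 62.8% with library totals alone.

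For the difference between the lines, 1 member and 832 genes were called. The count of members was 2 with no count filter, 2 at a mean count of at least 50 and 2 with DESeq2, JUN being the added member each time. The count of genes was 447 with median-of-ratios size factors, 544 in thinned libraries, where ATF3 was at -0.02, and 423 with DESeq2. The share of higher genes among these calls, 19.7%, became 39.6% with size factors, 29.1% with library totals alone, 56.6% with no count filter, 67% at a mean count of at least 50 and 40.9% with DESeq2.

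The replicate block gave 0 members and 1281 genes for the difference between the lines, with FOSL2 at 0.33 (adjusted p = 0.143). It left 8 members called in U2OS-AsiSI and 5 in U2OS, and it lost FOSB between the lines under siCtrl (0.53) and FOSL2 under siINTS11 (0.13, adjusted p = 0.0504). The numbers were not taken as pairs, since same-numbered libraries correlated at 0.445, -0.0394 and -0.0383 in U2OS-AsiSI and at 0.0098, -0.176 and 0.189 in U2OS.

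Leaving out one library at a time gave 5 to 8 members in U2OS-AsiSI, the lowest without siINTS11 replicate 2, and 1 to 2 members and 288 to 945 genes for the difference between the lines. JUN ran from -0.09 to 0.06 and JUND from -0.04 to 0.11 in U2OS, and JUN from -0.13 to 0.03 between the lines under siCtrl. For the difference between the lines, FOS ran from -0.27 to 0.02, JUNB from -0.07 to 0.20 and ATF3 from -0.04 to 0.07. Depth limits FOSB most, with 28 to 87 reads per library.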
